A study of Homo sapiens with 24 samples.

Results

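The genes described here form the machinery that copies DNA and supplies its building blocks: 46 named genes out of 78724 gene identifiers in the count tables. They were chosen by symbol, from a list of origin licensing, replication fork, E2F and deoxynucleotide genes, and every symbol matched 1 Ensembl identifier. No cutoff on a measured value was applied, but the list was drawn up with earlier results of these data known. Ordered by step, 11 genes act in licensing of origins, 6 in activation of the helicase, 6 as polymerase or primase subunits, 6 as the sliding clamp, its loader or a clamp partner, 4 in strand processing, 5 are E2F factors or E-type cyclins, 5 make or clear deoxynucleotides and 3 act on chromatin behind the fork. All 46 passed the filter on low counts in both cell lines, and the lowest count of any of them in any library was 28. OCUG-1, a gallbladder cancer line kept in DMEM, and HuCCT1, an intrahepatic cholangiocarcinoma line kept in RPMI-1640, were each treated for 72 h. One group of each line received 1.25 µM sorafenib together with 1 µM IACS-010759 (the combination). The others formed a dose series of DMSO vehicle (at most 0.1%), 1.25 µM and 10 µM sorafenib. Each of the 8 groups had 3 libraries labelled as biological replicates. There was no group on IACS-010759 without sorafenib, and what this inhibitor of mitochondrial complex I adds is therefore known only at 1.25 µM sorafenib. Sorafenib blocks RAF kinases and receptor kinases such as those for VEGF. Each line is 1 culture model with its own medium, so line and medium cannot be told apart.

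Replication starts when the origin recognition complex, CDC6 and CDT1 load rings of the MCM2 to MCM7 helicase onto DNA in G1. Cyclin E with CDK2, and the kinase DBF4-CDC7, then let CDC45 and the GINS complex join the ring, and the resulting helicase opens the fork for DNA polymerases alpha, delta and epsilon. PCNA, loaded by replication factor C, tethers the polymerases, while FEN1 and LIG1 join the fragments of the lagging strand. Most of these genes are textbook targets of the E2F transcription factors, which RB proteins hold back until cells commit to S phase, and their messenger RNA is therefore widely read as a mark of cycling cells. Many genes of mitosis carry instead a promoter element called CHR, bound by the DREAM and B-MYB complexes.

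The data are counts of sequenced fragments per gene from poly-A libraries, and levels are given as CPM, counts per 1000000 of a library's total after scaling by trimmed-mean (TMM) factors of all 24 libraries. Library totals ran from 14388855 to 30693736 counts. Adjusted p-values are Benjamini-Hochberg values of edgeR's quasi-likelihood test over all tested genes, two-sided, and "rose" or "fell" is used of genes with a value under 0.05. Replicate 3 of the HuCCT1 vehicle, 1.25 µM and 10 µM groups stood apart from replicates 1 and 2. Their chi-square over genes, divided by its degrees of freedom, was 31.9 to 58.95 in pairs with replicate 3. It was 6.08 to 13.5 between replicates 1 and 2. Several results that turn on replicate 3 are also given without it. These 3 libraries were picked out by their own counts, so the fits without them leave out the spread that they brought. Adjusted p-values of those fits rest on 2 libraries in each of these groups and may be too small. Markers fitted the labels in part. Epithelial KRT8, KRT18, KRT19, EPCAM and SOX9 exceeded 10 CPM in both lines, whereas KRT7 averaged 11.4 CPM in OCUG-1 and 5157 CPM in HuCCT1 and the cadherin CDH1 averaged 1.93 CPM in OCUG-1 and 151 CPM in HuCCT1. Markers of immune and endothelial cells reached means of at most 3.00 and 2.78 CPM in OCUG-1 and 2.89 and 4.04 CPM in HuCCT1. Of 6 fibroblast markers COL1A1 and LUM exceeded 10 CPM in both lines, and of 5 hepatocyte markers SERPINA1 did so in HuCCT1. In cell populations measured in bulk, fewer cells in S phase and less RNA per cell cannot be told apart.

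RefSeq promoter windows of GRCh38.p14, from 250 bases before to 50 bases after the annotated start of the gene, were at hand for 40 of the 46 genes. A core E2F element, searched on both strands as TTCCCGC, the variant TTGGCGC, the variant TTCGCGC or the variant TTGCCGC, with overlaps counted, was present in 28 of the 40 windows (70%), against 13.1% of the windows of all 27305 genes. CCAAT, the NF-Y box, was present in 21 (52.5%), against 35.7% of all genes. The CHR letters TTTGAA were present in 2 (5%), RRM1 and PIF1, against 15.4% of all genes. Among the genes with a window, the E2F letters were in 14 of the 21 that fell in OCUG-1 at 10 µM sorafenib, in 5 of the 10 that rose and in 9 of the 9 that were not called. A match is a description of the letters and not a measurement of binding. Windows are shown for 5 genes picked by hand as examples. They are the E2F factor E2F1 (chr20:33686336-33686635, minus strand), the licensing factors CDC6 (chr17:40287629-40287928, plus strand) and MCM6 (chr2:135876394-135876693, minus strand), the ligase LIG1 (chr19:48170295-48170594, minus strand) and the helicase PIF1 (chr15:64825598-64825897, minus strand). Capitals mark the E2F letters or their reverse complement, and in PIF1 the TTTGAA letters.
E2F1: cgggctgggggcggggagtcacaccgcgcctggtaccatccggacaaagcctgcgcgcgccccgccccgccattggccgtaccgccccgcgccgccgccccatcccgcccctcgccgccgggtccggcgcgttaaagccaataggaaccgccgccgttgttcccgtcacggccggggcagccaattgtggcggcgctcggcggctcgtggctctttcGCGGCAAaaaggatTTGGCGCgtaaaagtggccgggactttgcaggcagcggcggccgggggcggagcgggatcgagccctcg
CDC6: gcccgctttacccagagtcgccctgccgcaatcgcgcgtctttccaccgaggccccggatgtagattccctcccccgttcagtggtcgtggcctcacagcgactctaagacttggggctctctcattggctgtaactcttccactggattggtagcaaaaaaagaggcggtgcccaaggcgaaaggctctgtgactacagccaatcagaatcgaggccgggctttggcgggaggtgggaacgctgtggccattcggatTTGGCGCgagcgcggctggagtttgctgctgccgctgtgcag
MCM6: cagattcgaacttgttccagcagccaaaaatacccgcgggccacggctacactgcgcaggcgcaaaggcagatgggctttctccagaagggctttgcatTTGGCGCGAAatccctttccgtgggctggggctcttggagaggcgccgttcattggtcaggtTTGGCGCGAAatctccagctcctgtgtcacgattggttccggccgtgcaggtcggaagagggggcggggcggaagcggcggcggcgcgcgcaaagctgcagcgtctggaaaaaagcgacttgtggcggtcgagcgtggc
LIG1: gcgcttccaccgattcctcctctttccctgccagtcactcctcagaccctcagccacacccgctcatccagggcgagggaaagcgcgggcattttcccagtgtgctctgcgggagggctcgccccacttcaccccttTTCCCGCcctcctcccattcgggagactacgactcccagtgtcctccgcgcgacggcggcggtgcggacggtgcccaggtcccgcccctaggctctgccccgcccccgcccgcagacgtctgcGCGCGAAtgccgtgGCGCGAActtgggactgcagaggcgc
PIF1: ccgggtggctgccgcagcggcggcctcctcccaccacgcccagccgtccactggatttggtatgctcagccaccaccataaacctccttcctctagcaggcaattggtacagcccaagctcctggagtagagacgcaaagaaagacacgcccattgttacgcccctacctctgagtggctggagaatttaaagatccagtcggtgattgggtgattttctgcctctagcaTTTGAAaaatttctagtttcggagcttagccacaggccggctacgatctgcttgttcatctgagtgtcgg

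E2F1 held its matches at 33 and 19 bases before the start. The CDC6 match lay 8 bases after it. MCM6 held 4 matches in pairs that read on both strands, and LIG1 held 3. PIF1 held no E2F letters in its window and had TTTGAA 20 bases before its start.

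In OCUG-1 cells the replication genes divided at 10 µM sorafenib. Of the 46 genes 13 rose and 23 fell, while 32.4% of all tested genes rose and 30.7% fell. The share that rose, 28.3%, was close to that of all genes and the share that fell, 50%, lay above it. Genes that rose were CDC6, ORC1, ORC6, GMNN and MCM2 of licensing, MCM10, GINS3 and GINS4 of helicase activation, FEN1, RPA2, E2F1, CCNE1 and CCNE2. All 5 called polymerase genes, all 3 called clamp genes and all 3 called deoxynucleotide genes fell. The median log2 fold change was -0.23, against 0.00068 over all tested genes.

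At 1.25 µM sorafenib OCUG-1 showed little of this. CDC6 rose and PIF1 fell, which makes 1 gene in each direction and 44 not called, while 5.92% of all tested genes rose and 4.61% fell. Leaving out 1 library gave between 0 and 4 called genes: 0 without vehicle replicate 1 or 1.25 µM replicate 2, 1 without vehicle replicate 3 or 1.25 µM replicate 3, and 4 without 1.25 µM replicate 1. When libraries were scaled by their totals alone, 0 replication genes rose and 2 fell, and 662 of all genes rose and 1636 fell, against 1214 and 946 with TMM scaling. Adding IACS-010759 to 1.25 µM brought 26 genes down and 7 up, against 26.7% and 31.4% of all tested genes. Scaling by library totals alone gave 19 down and 11 up, and 4 were up without combination replicate 1. The median moved by -0.36 on the log2 scale, against 0.063 over all genes. Set against vehicle, the combination had 23 genes lower and 11 higher, with 28.1% and 31.5% of all tested genes, and a median of -0.26 against 0.038. The number higher was 6 without combination replicate 1 and 7 without vehicle replicate 1, vehicle replicate 3 or combination replicate 2. Set against 1.25 µM, the 10 µM dose had 24 lower and 11 higher, with 29% and 31.6% of all tested genes, and a median of -0.33 against 0.027. These comparisons share libraries: 10 µM and the combination were both read against the same vehicle or 1.25 µM groups.

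In HuCCT1 cells most of the same genes rose under each treatment over vehicle. At 1.25 µM 42 of 46 rose and 0 fell, while 9.98% of all tested genes rose and 8.5% fell. The median log2 fold change was 0.95, against 0.0032 over all genes. MCM2, RPA2, CCNE2 and RRM1 were not called. At 10 µM 33 rose and 0 fell, with 13% and 11.2% of all genes and a median of 0.72 against 0.0091. With the combination 32 rose and 0 fell relative to vehicle, with 9.94% and 10.1% of all genes and a median of 0.63 against -0.0012. Without replicate 3 of the 3 groups named above the counts were 45 at 1.25 µM, 41 at 10 µM and 41 with the combination, and 0 fell in each. With all libraries, an unadjusted p under 0.05 in edgeR held for 0, 0 and 0 genes downward in these 3 comparisons, and DESeq2 called 0, 0 and 0 down.

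Both stronger treatments left HuCCT1 below the level reached at 1.25 µM for part of the genes. Adding IACS-010759 lowered 17 genes and raised 0, with 6.57% and 5.06% of all tested genes, and a median of -0.31 against 0.0016. The 10 µM dose lowered 17 and raised 1, RFC3, relative to 1.25 µM, with 13.7% and 14.4% of all tested genes, and a median of -0.26 against -0.0021. Leaving out replicate 3 changed these counts to 24 lower and 3 higher for the combination and to 18 lower and 10 higher for the 10 µM dose. With single libraries left out, the combination called 10 genes without 1.25 µM replicate 1 or 2 or combination replicate 2, 8 without combination replicate 3 and 7 without combination replicate 1. The 10 µM dose raised 3 genes without 1.25 µM replicate 3. Scaling by library totals alone gave 7 lower and 0 higher for the combination, and 9 lower and 1 higher for 10 µM. Over all genes that scaling also shifted the direction of the calls: 1126 rose and 3097 fell at 1.25 µM (1953 and 1663 with TMM), 2601 and 555 with the combination over 1.25 µM (990 and 1286), and 4409 and 1280 at 10 µM over 1.25 µM (2827 and 2691).

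**Figure D1:**
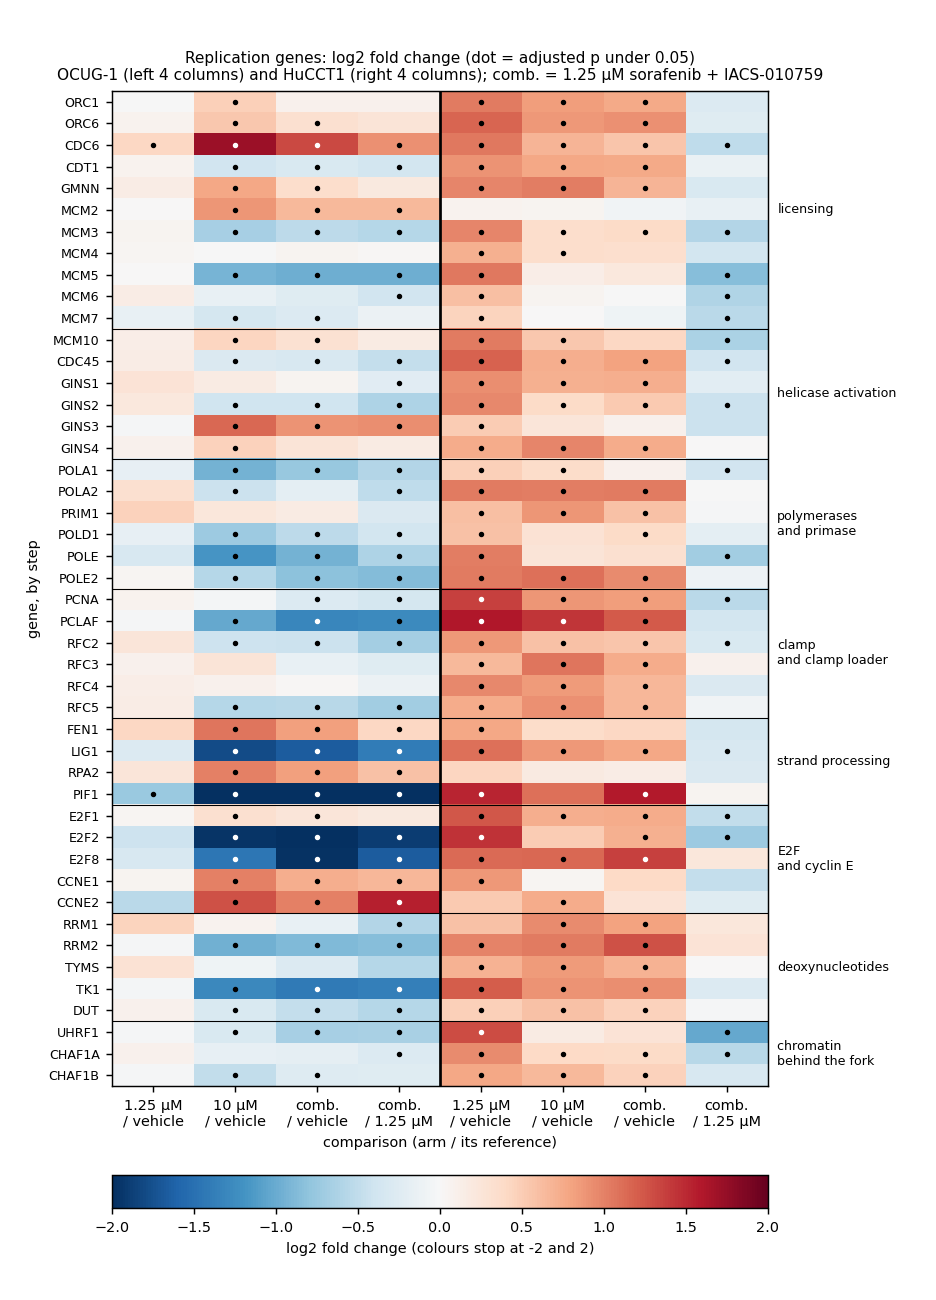
Log2 fold change of each of the 46 genes (rows, grouped by step) in 4 comparisons of OCUG-1 (left) and 4 of HuCCT1 (right), where red is higher and blue lower in the treated group and a dot marks an adjusted p under 0.05. HuCCT1 holds 42 raised genes at 1.25 µM, whereas OCUG-1 holds 13 raised and 23 lowered genes at 10 µM.

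The lines differed in their responses by a direct test, the OCUG-1 change minus the HuCCT1 change in 1 fit of 24 libraries. At 1.25 µM 34 genes responded lower in OCUG-1 and 0 higher, against 4.69% and 4.96% of all tested genes, with a median difference of -0.78 against -0.029. At 10 µM 33 responded lower and 5 higher in OCUG-1, against 23.1% and 20.7%, with a median of -0.92 against -0.061. The 5 higher were CDC6, GINS3, FEN1, RPA2 and CCNE1. For the combination over 1.25 µM 12 responded lower and 8 higher in OCUG-1, against 20.2% and 18.6%, with a median of -0.11 against -0.041. Without the 3 HuCCT1 libraries that stood apart, an alternative chosen after the data were seen, the counts were 36 lower and 0 higher at 1.25 µM, 36 and 4 at 10 µM, and 17 and 9 for the combination over 1.25 µM. At 10 µM 16 genes were called down in OCUG-1 and up in HuCCT1, 8 were called up in both lines and 0 were called down in HuCCT1. The share of all tested genes with each pair of calls was not computed, so these counts of pairs have no background beside them.

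**Figure D2:**
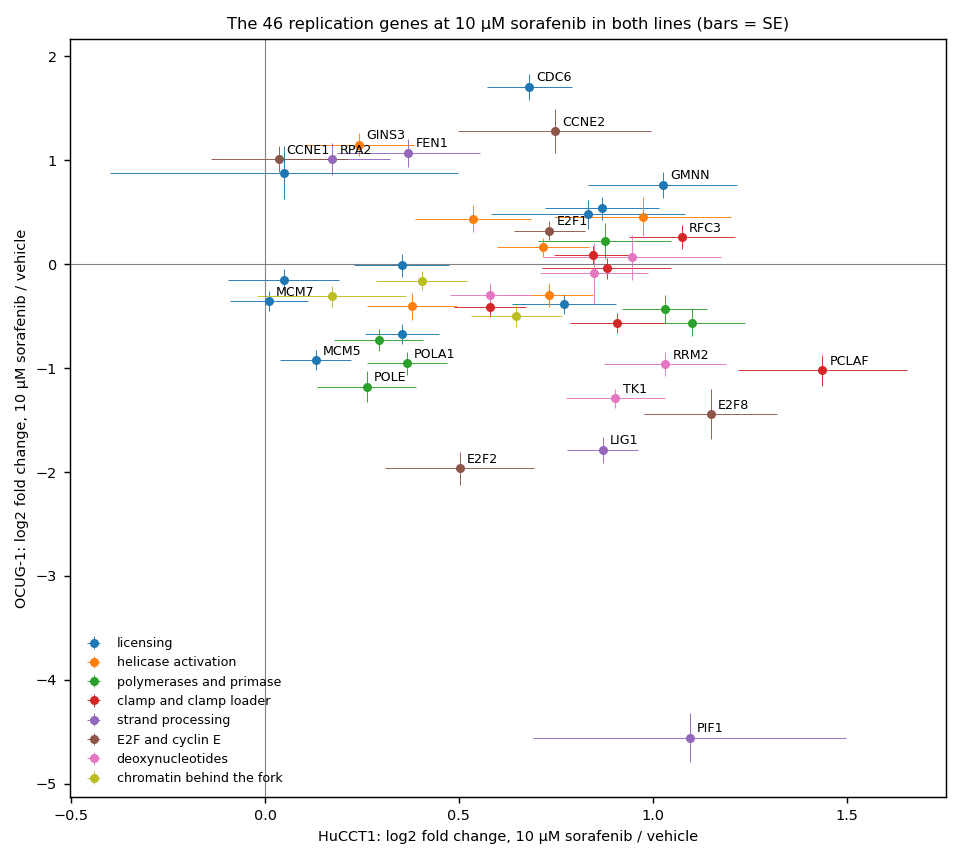
Log2 fold change at 10 µM sorafenib over vehicle in OCUG-1 (vertical axis) and HuCCT1 (horizontal axis) for the 46 genes, coloured by step, with bars of 1 SE. Every gene lies right of 0 for HuCCT1, down to 0.01 for MCM7, while OCUG-1 values run from -4.56 for PIF1 to 1.71 for CDC6.

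Starting levels differed between the lines as well. In vehicle, 36 of the 46 genes were higher in all 3 OCUG-1 libraries than in all 3 HuCCT1 libraries, 1, FEN1, was lower, and 9 overlapped. The share of all genes that separate in this way was not computed, so whether 36 is many for these 2 lines is not known. The summed level of the 46 genes was 2983, 3148 and 3019 CPM in the OCUG-1 vehicle libraries and 1911, 1785 and 2138 CPM in the HuCCT1 vehicle libraries. In the OCUG-1 dose series the sum then ran to 3066, 3206 and 3298 CPM at 1.25 µM and 2574, 2649 and 2671 CPM at 10 µM. In HuCCT1 it was 3567, 3585 and 3791 CPM at 1.25 µM and 3043, 3244 and 2540.4 CPM at 10 µM. On this TMM scale all 3 HuCCT1 libraries at 1.25 µM exceeded all 3 OCUG-1 vehicle libraries. Their TMM factors were 0.820, 0.846 and 0.904, against 1.044, 1.038 and 1.064 in OCUG-1 vehicle. The order of levels between lines therefore depends on that scaling and is not shown to hold with library totals alone. The combination gave 2544, 2326 and 2306 CPM in OCUG-1 and 2823, 3041 and 2848 CPM in HuCCT1. Per kilobase of transcript (RPKM, the CPM divided by the length in kilobases of the longest coding transcript), the highest of the 46 over 24 libraries was PCNA at 207 RPKM, followed by TK1 at 94.1 and MCM7 at 59.1 RPKM. The lowest was E2F2 at 1.85 RPKM.

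**Figure D3:**
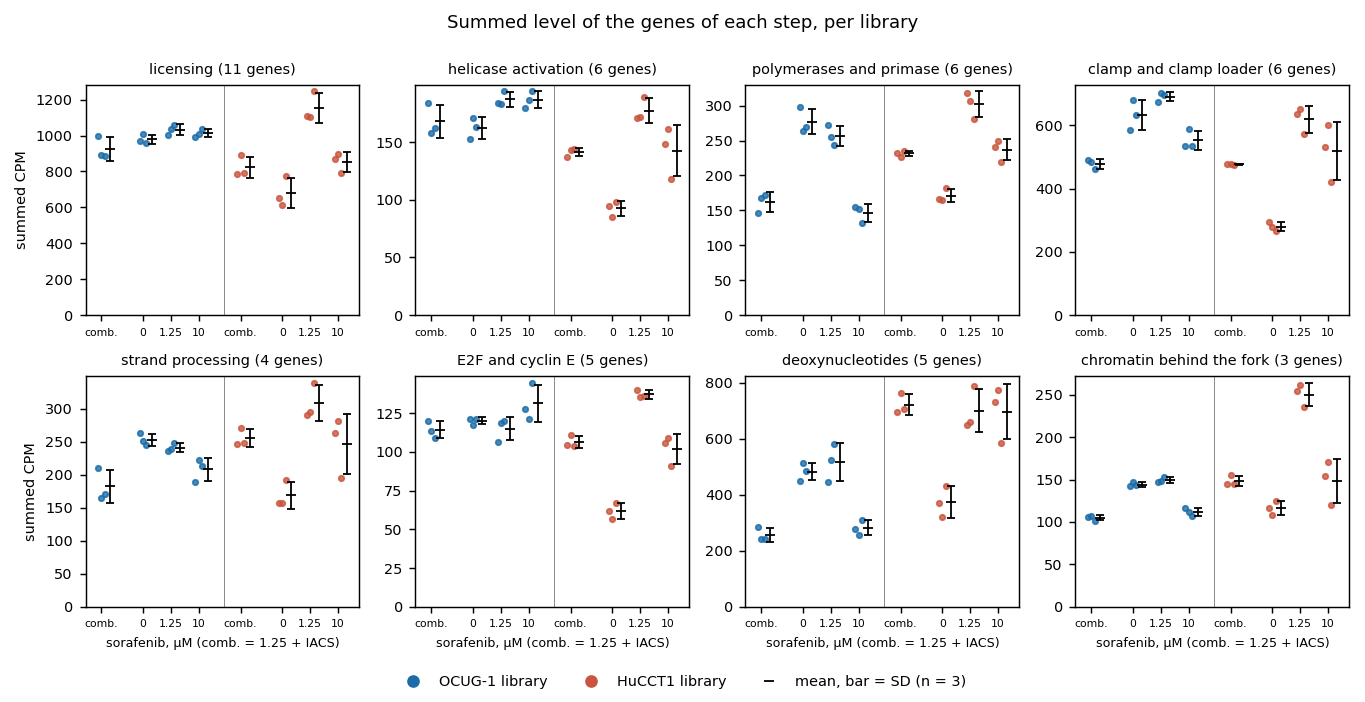
Summed CPM of the genes of each step in every library, for the combination (comb.) and the dose series of OCUG-1 (left in each panel) and HuCCT1 (right), with the mean and SD of 3 libraries. Deoxynucleotide genes summed to 278, 256 and 309 CPM at 10 µM in OCUG-1 and to 730.1, 773 and 585 CPM in HuCCT1.

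Other features of the libraries moved with the groups. The share of counts from the mitochondrial chromosome was 5.65% to 6.25% at 10 µM and 4.71% to 6.48% with the combination in OCUG-1, against 11.1% to 13.6% in its vehicle libraries. In HuCCT1 it was 12.5% to 21.8% at 1.25 µM, against 7.08% to 14.1% in vehicle. Without the 37 genes of that chromosome the counts were 13 up and 23 down in OCUG-1 at 10 µM and 42 up and 0 down in HuCCT1 at 1.25 µM. Whether reads were counted by strand is not stated in the notes, so counts may hold reads of overlapping genes for 9 of the 46 whose exons are shared by over 10%: MCM2 (22.7% of exon bases), GINS3 (10.9%), GINS4 (21.2%), POLA2 (35.1%), PRIM1 (14.9%), PCLAF (28.8%), CCNE2 (37%, with INTS8), TYMS (39.1%, with ENOSF1) and DUT (14.5%).

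Licensing genes of OCUG-1 split at 10 µM: the loader CDC6, the origin subunits ORC1 and ORC6, the CDT1 inhibitor GMNN (geminin) and MCM2 rose, while CDT1 and the ring subunits MCM3, MCM5 and MCM7 fell. Of the 11 genes 5 rose and 4 fell, where 32.4% and 30.7% of all tested genes did. A split in both directions therefore does not by itself set a step apart, and these shares also stand beside the 10 µM counts of the steps below. CDC6 (ENSG00000094804, chr17:40287633-40304657, plus strand), which brings MCM rings to origins, was at 85.2, 88.7 and 79.7 CPM in vehicle, 131, 109.7 and 103 CPM at 1.25 µM and 237, 293 and 259 CPM at 10 µM. The libraries of each dose lay above all those of the dose below it. At 10 µM the change over vehicle was 1.71 (SE 0.13, adjusted p = 1.8e-09) on the log2 scale, and at 1.25 µM 0.41 (SE 0.12, adjusted p = 0.0406). CDC6 had 235, 187 and 175 CPM with the combination, against 131, 109.7 and 103 CPM at 1.25 µM alone. Groups did not overlap, with log2 fold change 0.91, SE 0.12, adjusted p = 4.91e-06. CDC6 also had the widest range of group means among the licensing genes, 5.58-fold between OCUG-1 at 10 µM and HuCCT1 in vehicle. Leaving out 1 library at a time ended the call at 1.25 µM for CDC6 without vehicle replicate 1 or 2 or 3 or 1.25 µM replicate 1 or 2 (adjusted p = 0.0518 to 0.152).

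ORC1, the largest subunit of the origin recognition complex, had 13.7, 12.95 and 13.5 CPM at 10 µM in OCUG-1, against 9.66, 8.91 and 11.7 CPM in vehicle. All 3 treated libraries were higher (log2 fold change 0.48, SE 0.14, adjusted p = 0.00727). ORC6, another subunit, had 103, 125 and 106 CPM at 10 µM, against 86.3, 80.5 and 74.8 CPM in vehicle. Its groups did not overlap either (log2 fold change 0.54, SE 0.11, adjusted p = 0.000327). GMNN had 70.1, 71.9 and 83.03 CPM at 10 µM, against 41.1, 49.4 and 48.3 CPM in vehicle. The treated libraries were again all higher (log2 fold change 0.77, SE 0.13, adjusted p = 3.37e-05). MCM2, a ring subunit, had 32.8, 25.9 and 33.2 CPM at 10 µM, against 15.3, 20.9 and 16.2 CPM in vehicle. All 3 treated libraries were higher (log2 fold change 0.88, SE 0.26, adjusted p = 0.0078). With the combination over vehicle ORC6, GMNN, CDC6 and MCM2 were also called up, and ORC1 was not (log2 fold change 0.09, adjusted p = 0.625).

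MCM3, MCM5 and MCM7 of the ring moved the other way in OCUG-1. MCM7 (ENSG00000166508, chr7:100092728-100101940, minus strand), highest of the licensing genes per kilobase, was at 228, 221 and 221 CPM in vehicle, 194, 201 and 221 CPM at 1.25 µM and 167, 152 and 179.5 CPM at 10 µM. All 3 libraries at 10 µM lay below all vehicle libraries (log2 fold change -0.36, SE 0.10, adjusted p = 0.00355). MCM7 had 184, 164 and 176 CPM with the combination, against 194, 201 and 221 CPM at 1.25 µM alone. All 3 combination libraries were lower, and the change was not called (log2 fold change -0.11, SE 0.10, adjusted p = 0.322). MCM5 fell by 0.92 at 10 µM (adjusted p = 2.49e-07) and by 0.98 when IACS-010759 was added (adjusted p = 1.72e-07), on the log2 scale. MCM3 fell by 0.67 and 0.57 (adjusted p = 8.69e-06 and 7.02e-05). MCM6 was called down with the combination over 1.25 µM (-0.38, adjusted p = 0.0036) and not at 10 µM over vehicle (-0.15, adjusted p = 0.212). MCM4 was called in none of the 5 OCUG-1 comparisons, where its log2 fold changes lay between -0.05 and 0.06. CDT1, the partner of CDC6 in loading, fell at 10 µM (-0.38, adjusted p = 0.00273).

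In HuCCT1 10 of the 11 licensing genes rose at 1.25 µM, 7 at 10 µM and 6 with the combination over vehicle. Of all tested genes 9.98%, 13% and 9.94% rose in these comparisons. The same shares stand beside the HuCCT1 counts over vehicle in the steps below. CDC6 was at 46.2, 40.8 and 54.6 CPM in vehicle, 98.3, 94.9 and 101 CPM at 1.25 µM and 73.9, 75.8 and 77.4 CPM at 10 µM. Both doses lay above vehicle, and 1.25 µM lay above 10 µM (log2 fold change 1.06, SE 0.11, adjusted p = 2.71e-05 at 1.25 µM). CDC6 had 64.2, 76.8 and 66.9 CPM with the combination, against 98.3, 94.9 and 101 CPM at 1.25 µM alone. That was lower in all 3 libraries (log2 fold change -0.50, SE 0.11, adjusted p = 0.00764). MCM7 was at 149, 155 and 177 CPM in vehicle, 218, 205 and 228 CPM at 1.25 µM and 164, 169.7 and 151 CPM at 10 µM. It exceeded vehicle at 1.25 µM (log2 fold change 0.44, SE 0.10, adjusted p = 0.00734) and overlapped it at 10 µM (log2 fold change 0.01, SE 0.10, adjusted p = 0.956). MCM5 and MCM6 followed that pattern: they rose at 1.25 µM by 1.05 and 0.59, and at 10 µM their log2 fold changes over vehicle were 0.13 (adjusted p = 0.324) and 0.05 (adjusted p = 0.845). Adding IACS-010759 lowered MCM3, MCM5, MCM6 and MCM7 by 0.59, 0.85, 0.60 and 0.53 on the log2 scale (adjusted p = 0.000947, 1.99e-05, 0.0133 and 0.00346). ORC1, ORC6, CDT1 and GMNN rose in all 3 treatments over vehicle, by 0.67 to 1.16 on the log2 scale. The lower calls of the combination over 1.25 µM were lost for CDC6 without combination replicate 1 (adjusted p = 0.0537) and for MCM6 without combination replicate 1 or 3 (adjusted p = 0.0561 to 0.0704).

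MCM2 in HuCCT1 was carried by single libraries. It was at 23.7, 20.7 and 51.9 CPM in vehicle, 20.02, 21.1 and 60.04 CPM at 1.25 µM and 34.01, 28.9 and 36.8 CPM at 10 µM, and at 23.4, 38.5 and 29.7 CPM with the combination. In vehicle and at 1.25 µM the third library was more than the sum of the other 2, and no comparison called it. Without replicate 3 of those groups MCM2 was higher with the combination than at 1.25 µM (log2 fold change 0.56, adjusted p = 0.0447) and higher at 10 µM than at 1.25 µM (0.61, adjusted p = 0.0405). MCM4 rose at both doses (1.25 µM 0.71, adjusted p = 0.00114, and 10 µM 0.35, adjusted p = 0.0442). The 10 µM call was lost for MCM4 without vehicle replicate 1 or 2 or 10 µM replicate 1 or 2 (adjusted p = 0.115 to 0.19). The response to 1.25 µM was lower in OCUG-1 than in HuCCT1 for 9 of the 11 genes, all but MCM2 and MCM6. At 10 µM it was lower for 5 (CDT1, MCM3, MCM4, MCM5, MCM7) and higher for CDC6, with a difference of 0.96 (SE 0.17, adjusted p = 3.12e-05).

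Genes that turn the loaded ring into a working helicase also divided in OCUG-1. Of the 6 genes 3 rose and 2 fell at 10 µM, where 32.4% and 30.7% of all tested genes did. GINS3 (ENSG00000181938, chr16:58295080-58406144, plus strand), a subunit of the GINS complex, was at 19.2, 23.4 and 20.4 CPM in vehicle, 20.8, 20.96 and 21.6 CPM at 1.25 µM and 40.6, 42.3 and 50.5 CPM at 10 µM. The 10 µM libraries stood clear of both other groups (log2 fold change 1.15, SE 0.11, adjusted p = 6.46e-08 over vehicle). GINS3 had 38.4, 36.9 and 35.7 CPM with the combination, against 20.8, 20.96 and 21.6 CPM at 1.25 µM alone. It rose there as well (log2 fold change 0.93, SE 0.11, adjusted p = 1.4e-06). GINS4 had 19.1, 17.6 and 17.5 CPM at 10 µM, against 10.95, 15.6 and 14.9 CPM in vehicle, and was just past the threshold (log2 fold change 0.46, SE 0.19, adjusted p = 0.0379). MCM10, which helps activate the helicase, had 21.6, 23.00 and 21.9 CPM at 10 µM, against 14.02, 20.1 and 17.4 CPM in vehicle. Its groups were adjacent without overlap (log2 fold change 0.44, SE 0.13, adjusted p = 0.00659). GINS1 (ENSG00000101003, chr20:25407727-25452628, plus strand), highest of the step per kilobase, was at 56.6, 63.6 and 60.5 CPM in vehicle, 76.2, 70.6 and 75.7 CPM at 1.25 µM and 64.1, 63.4 and 65.4 CPM at 10 µM. All 1.25 µM libraries lay above vehicle and the 10 µM libraries overlapped it, and neither dose was called (log2 fold change 0.27, SE 0.09, adjusted p = 0.0653 at 1.25 µM and log2 fold change 0.16, SE 0.09, adjusted p = 0.125 at 10 µM). CDC45 and GINS2 fell at 10 µM by 0.29 and 0.41 on the log2 scale (adjusted p = 0.0378 and 0.0109) and with the combination over 1.25 µM by 0.47 and 0.61 (adjusted p = 0.00235 and 0.000567). Subunits of the GINS complex, which work as 1 assembly, therefore moved in both directions: GINS3 and GINS4 were called up and GINS2 down at 10 µM. Left-out libraries ended the 10 µM calls for GINS4 without vehicle replicate 1 or 3 or 10 µM replicate 1 or 2 or 3 (adjusted p = 0.0515 to 0.186), for MCM10 without vehicle replicate 1 (adjusted p = 0.0551) and for CDC45 without vehicle replicate 1 or 3 or 10 µM replicate 1 or 3 (adjusted p = 0.079 to 0.172).

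In HuCCT1 all 6 rose at 1.25 µM, 5 rose at 10 µM and 4 with the combination over vehicle. GINS1 was at 32.1, 28.1 and 30.9 CPM in vehicle, 56.6, 58.3 and 58.5 CPM at 1.25 µM and 52.1, 57.5 and 40.1 CPM at 10 µM. Both doses cleared vehicle (log2 fold change 0.72, SE 0.12, adjusted p = 0.000375 at 10 µM). GINS3 was at 12.3, 11.6 and 12.3 CPM in vehicle, 16.5, 15.2 and 19.9 CPM at 1.25 µM and 13.4, 16.8 and 12.6 CPM at 10 µM. It rose at 1.25 µM (log2 fold change 0.51, SE 0.14, adjusted p = 0.0201) and was not called at 10 µM (log2 fold change 0.24, SE 0.14, adjusted p = 0.233). CDC45 rose at 1.25 µM by 1.19, at 10 µM by 0.73 and with the combination by 0.81 (adjusted p = 1.59e-05, 0.00022 and 0.000126). GINS4 had 17.9, 17.6 and 12.2 CPM at 10 µM, against 7.72, 6.21 and 10.3 CPM in vehicle (log2 fold change 0.97, SE 0.23, adjusted p = 0.00539). MCM10 had 17.3, 20.6 and 21.7 CPM at 1.25 µM, against 9.54, 9.20 and 10.3 CPM in vehicle (log2 fold change 1.04, SE 0.15, adjusted p = 0.00034). Over 1.25 µM the combination lowered MCM10, CDC45 and GINS2 by 0.63, 0.38 and 0.44 (adjusted p = 0.0119, 0.037 and 0.0204). The difference between lines at 10 µM was 0.84 for GINS3 (adjusted p = 0.000309), higher in OCUG-1, and lower in OCUG-1 for CDC45 (-1.10), GINS1 (-0.62) and GINS2 (-0.86). Single left-out libraries ended the 1.25 µM call in HuCCT1 for GINS3 without vehicle replicate 1 or 2 or 1.25 µM replicate 3 (adjusted p = 0.0522 to 0.064). They ended the lower calls of the combination for MCM10 without 1.25 µM replicate 2 or combination replicate 1 or 3 (adjusted p = 0.0511 to 0.0716), for CDC45 without 1.25 µM replicate 1 or 2 or combination replicate 1 or 2 or 3 (adjusted p = 0.0647 to 0.163) and for GINS2 without 1.25 µM replicate 1 or 2 or combination replicate 1 or 2 or 3 (adjusted p = 0.052 to 0.0959).

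Of the 6 polymerase genes of OCUG-1, 5 fell when IACS-010759 was added to 1.25 µM, against 26.7% of all tested genes. At 10 µM over vehicle 5 fell and 0 rose, with the primase subunit PRIM1 not called (0.22, adjusted p = 0.27). POLE (ENSG00000177084, chr12:132623753-132687365, minus strand), the catalytic subunit of leading-strand polymerase epsilon, was at 132, 105 and 114 CPM in vehicle, 113, 92.1 and 82.9 CPM at 1.25 µM and 53.6, 53.7 and 40.1 CPM at 10 µM. All 10 µM libraries lay below all others of the series (log2 fold change -1.18, SE 0.15, adjusted p = 1.51e-06 over vehicle). POLE had 47.9, 61.7 and 62.6 CPM with the combination, against 113, 92.1 and 82.9 CPM at 1.25 µM alone. It was lower in all 3 libraries (log2 fold change -0.62, SE 0.15, adjusted p = 0.00129). POLD1 (ENSG00000062822, chr19:50384204-50418016, plus strand), the catalytic subunit of lagging-strand polymerase delta, was at 62.4, 57.4 and 56.6 CPM in vehicle, 49.8, 54.2 and 56.9 CPM at 1.25 µM and 37.4, 33.01 and 30.5 CPM at 10 µM. It too was lower at 10 µM without overlap (log2 fold change -0.73, SE 0.11, adjusted p = 8.39e-06). POLA1 and POLA2, catalytic and accessory subunits of polymerase alpha, fell by 0.95 and 0.43 at 10 µM (adjusted p = 5.37e-07 and 0.00938). POLE2, the accessory subunit of polymerase epsilon, fell by 0.56 at 10 µM (adjusted p = 0.00106) and by 0.83 with the combination over vehicle (adjusted p = 3.26e-05).

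In HuCCT1 all 6 rose at 1.25 µM. POLE was at 62.9, 72.5 and 65.00 CPM in vehicle, 151, 145 and 110.2 CPM at 1.25 µM and 85.8, 87.2 and 67.3 CPM at 10 µM. It was raised at 1.25 µM (log2 fold change 1.02, SE 0.13, adjusted p = 0.000117), and at 10 µM the library of replicate 3 fell among the vehicle values (log2 fold change 0.26, SE 0.13, adjusted p = 0.149). Without replicate 3 the 10 µM value was 0.35 (adjusted p = 0.0013). POLE had 87.4, 78.4 and 85.3 CPM with the combination, against 151, 145 and 110.2 CPM at 1.25 µM alone. It fell (log2 fold change -0.70, SE 0.13, adjusted p = 0.0025). POLD1 was at 41.3, 33.4 and 47.3 CPM in vehicle, 61.99, 59.2 and 61.7 CPM at 1.25 µM and 50.6, 51.1 and 47.9 CPM at 10 µM. Both doses exceeded vehicle in every library, and only 1.25 µM was called (log2 fold change 0.59, SE 0.11, adjusted p = 0.00285, against log2 fold change 0.29, SE 0.11, adjusted p = 0.0724 at 10 µM). POLA2, POLE2 and PRIM1 stayed raised at 10 µM, by 1.03, 1.10 and 0.88 (adjusted p = 1e-05, 3.67e-05 and 0.00152), and POLA1 by 0.37 (adjusted p = 0.0163). All 6 responded lower in OCUG-1 than in HuCCT1 at 10 µM, by -0.72 for PRIM1 to -1.74 for POLE2 (adjusted p = 0.0216 and 1.68e-08). The PRIM1 difference lost its call for PRIM1 without HuCCT1 vehicle replicate 2 or HuCCT1 10 µM replicate 2 or OCUG-1 vehicle replicate 2 or OCUG-1 10 µM replicate 2 (adjusted p = 0.0598 to 0.13), and the 10 µM rise in HuCCT1 was lost for POLA1 without vehicle replicate 1 or 2 (adjusted p = 0.0705 to 0.0752).

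PCNA (ENSG00000132646, chr20:5114953-5126626, minus strand), the sliding clamp, was at 306, 379 and 351 CPM in vehicle, 351, 376 and 385 CPM at 1.25 µM and 304, 351 and 305 CPM at 10 µM in OCUG-1. Its groups overlapped (log2 fold change -0.04, SE 0.10, adjusted p = 0.741 at 10 µM). PCNA had 272, 277 and 259 CPM with the combination, against 351, 376 and 385 CPM at 1.25 µM alone. There it was lower in all libraries (log2 fold change -0.34, SE 0.10, adjusted p = 0.00735). PCLAF (ENSG00000166803, chr15:64364311-64387687, minus strand), a small protein that rides on PCNA, was at 51.6, 45.98 and 48.6 CPM in vehicle, 56.99, 52.6 and 36.4 CPM at 1.25 µM and 26.4, 19.8 and 22.3 CPM at 10 µM. The 10 µM libraries were all below the rest (log2 fold change -1.02, SE 0.15, adjusted p = 9.7e-06 over vehicle). PCLAF had 20.2, 19.00 and 16.6 CPM with the combination, against 56.99, 52.6 and 36.4 CPM at 1.25 µM alone. It fell again (log2 fold change -1.27, SE 0.15, adjusted p = 1.11e-06). Among the small subunits of the clamp loader, RFC2 and RFC5 fell at 10 µM by 0.42 and 0.57 (adjusted p = 0.000669 and 6.07e-05), while RFC3 (0.26, adjusted p = 0.0598) and RFC4 (0.08, adjusted p = 0.409) were not called. These 4 subunits sit in the same loader, and 2 of them were called.

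All 6 rose in HuCCT1 under each treatment over vehicle. PCNA was at 144, 135 and 114 CPM in vehicle, 357, 355 and 303 CPM at 1.25 µM and 264, 299 and 163 CPM at 10 µM. Each dose exceeded vehicle without overlap, although the third library at 10 µM was closest to it (log2 fold change 1.37, SE 0.17, adjusted p = 0.000109 at 1.25 µM and log2 fold change 0.88, SE 0.17, adjusted p = 0.00115 at 10 µM). PCNA had 236, 236 and 231 CPM with the combination, against 357, 355 and 303 CPM at 1.25 µM alone. It was called lower, just past the threshold (log2 fold change -0.53, SE 0.16, adjusted p = 0.0469). That call was lost for PCNA without 1.25 µM replicate 1 or 2 or combination replicate 1 or 2 or 3 (adjusted p = 0.121 to 0.153). PCLAF was at 14.6, 15.2 and 11.5 CPM in vehicle, 47.5, 46.6 and 30.4 CPM at 1.25 µM and 39.2, 48.3 and 24.3 CPM at 10 µM. It had the highest log2 fold change of the 46 genes at both doses (log2 fold change 1.60, SE 0.22, adjusted p = 0.000347 at 1.25 µM and log2 fold change 1.44, SE 0.22, adjusted p = 0.000269 at 10 µM). RFC3 was at 28.9, 23.5 and 25.6 CPM in vehicle, 36.4, 45.2 and 40.6 CPM at 1.25 µM and 56.2, 65.3 and 43.1 CPM at 10 µM. It was the only member called higher at 10 µM than at 1.25 µM (log2 fold change 0.42, SE 0.13, adjusted p = 0.0271), although the 2 groups overlapped. That call was lost for RFC3 without 1.25 µM replicate 1 or 10 µM replicate 1 or 2 (adjusted p = 0.0721 to 0.132). Without replicate 3, 9 other genes joined it in that direction. The response of PCLAF at 10 µM was lower in OCUG-1 than in HuCCT1 by -2.53 (SE 0.28, adjusted p = 7.39e-08), and all 6 genes responded lower there.

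Strand processing held the largest single change in OCUG-1. PIF1 (ENSG00000140451, chr15:64815632-64825668, minus strand), a DNA helicase that resolves G-quadruplexes and acts at telomeres and in mitochondria, was at 64.7, 52.2 and 50.4 CPM in vehicle, 41.5, 31.9 and 29.05 CPM at 1.25 µM and 2.89, 1.14 and 2.74 CPM at 10 µM. Each dose lay below the one before it (log2 fold change -0.74, SE 0.19, adjusted p = 0.0215 at 1.25 µM and log2 fold change -4.56, SE 0.24, adjusted p = 1.03e-10 at 10 µM, both over vehicle). PIF1 had 1.91, 1.84 and 1.99 CPM with the combination, against 41.5, 31.9 and 29.05 CPM at 1.25 µM alone. It fell by the addition (log2 fold change -4.04, SE 0.24, adjusted p = 9.85e-10), and its group means ranged 29.1-fold over the 8 groups. LIG1, the ligase that seals the lagging strand, had 34.6, 26.9 and 27.1 CPM at 10 µM, against 119, 97.9 and 105 CPM in vehicle. It fell without overlap (log2 fold change -1.79, SE 0.12, adjusted p = 7.54e-10).

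FEN1 (ENSG00000168496, chr11:61792637-61797244, plus strand), which removes the flaps that LIG1 then seals, moved against LIG1. It was at 47.5, 60.6 and 54.8 CPM in vehicle, 62.8, 74.1 and 83.9 CPM at 1.25 µM and 94.96, 119.9 and 112 CPM at 10 µM. Its groups stepped up with dose (log2 fold change 1.07, SE 0.13, adjusted p = 1.54e-06 at 10 µM, and log2 fold change 0.41, SE 0.13, adjusted p = 0.0582 at 1.25 µM). FEN1 had 108, 79.7 and 83.3 CPM with the combination, against 62.8, 74.1 and 83.9 CPM at 1.25 µM alone. These overlapped in part and were called (log2 fold change 0.41, SE 0.13, adjusted p = 0.0127). RPA2, a subunit of the protein that coats single-stranded DNA, had 56.4, 74.4 and 70.8 CPM at 10 µM, against 31.03, 39.5 and 34.4 CPM in vehicle. It rose (log2 fold change 1.01, SE 0.15, adjusted p = 1.51e-05). The lowered pair and the raised pair thus filled this step, with 0 genes not called at 10 µM. Of all tested genes 32.4% rose and 30.7% fell there, and 4 genes are too few to set the step apart from that. In OCUG-1 the 1.25 µM call was lost for PIF1 without vehicle replicate 1 or 1.25 µM replicate 2 or 3 (adjusted p = 0.0856 to 0.105), and the call of the addition for FEN1 without 1.25 µM replicate 1 or combination replicate 1 (adjusted p = 0.0683 to 0.206).

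In HuCCT1 PIF1 was at 10.6, 14.96 and 15.1 CPM in vehicle, 44.7, 40.98 and 31.2 CPM at 1.25 µM and 37.8, 39.3 and 9.15 CPM at 10 µM. At 1.25 µM it was higher in every library (log2 fold change 1.53, SE 0.41, adjusted p = 0.0244), and at 10 µM 2 libraries were high and the third was below all vehicle values (log2 fold change 1.10, SE 0.40, adjusted p = 0.071). Leaving out replicate 3 of the groups named above gave 1.61 at 10 µM (adjusted p = 1.26e-12). That p-value comes from 2 libraries in each of those groups, after the library that disagreed was taken out. PIF1 had 42.6, 36.5 and 42.03 CPM with the combination, against 44.7, 40.98 and 31.2 CPM at 1.25 µM alone. These did not differ detectably (log2 fold change 0.05, SE 0.39, adjusted p = 0.95). LIG1 rose at 1.25 µM, at 10 µM and with the combination by 1.10, 0.87 and 0.77 (adjusted p = 8.28e-06, 8.75e-06 and 2.83e-05). FEN1 was at 70.9, 63.6 and 89.3 CPM in vehicle, 109, 113 and 159 CPM at 1.25 µM and 103, 116 and 70.4 CPM at 10 µM. It rose at 1.25 µM (log2 fold change 0.77, SE 0.18, adjusted p = 0.0105) and overlapped vehicle at 10 µM (log2 fold change 0.37, SE 0.18, adjusted p = 0.162). That overlap came from replicate 3, while replicates 1 and 2 at 10 µM lay above all vehicle libraries. RPA2 had 43.8, 43.6 and 61.7 CPM at 1.25 µM, against 32.2, 32.6 and 46.1 CPM in vehicle, which was not called (log2 fold change 0.43, SE 0.15, adjusted p = 0.0546). The 10 µM response differed between lines by -5.73 for PIF1 and -2.73 for LIG1 (adjusted p = 1.78e-07 and 3.1e-14), both lower in OCUG-1, and by 0.77 for RPA2 and 0.63 for FEN1 (adjusted p = 0.00747 and 0.0414), both higher in OCUG-1. Leaving out single libraries ended the line difference of FEN1 without HuCCT1 vehicle replicate 1 or 3 or HuCCT1 10 µM replicate 1 or 3 or OCUG-1 vehicle replicate 1 or 3 or OCUG-1 10 µM replicate 2 or 3 (adjusted p = 0.0513 to 0.138), and the 1.25 µM rise of PIF1 without vehicle replicate 1 or 2 or 3 or 1.25 µM replicate 1 or 2 (adjusted p = 0.0557 to 0.0875).

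**Figure D4:**
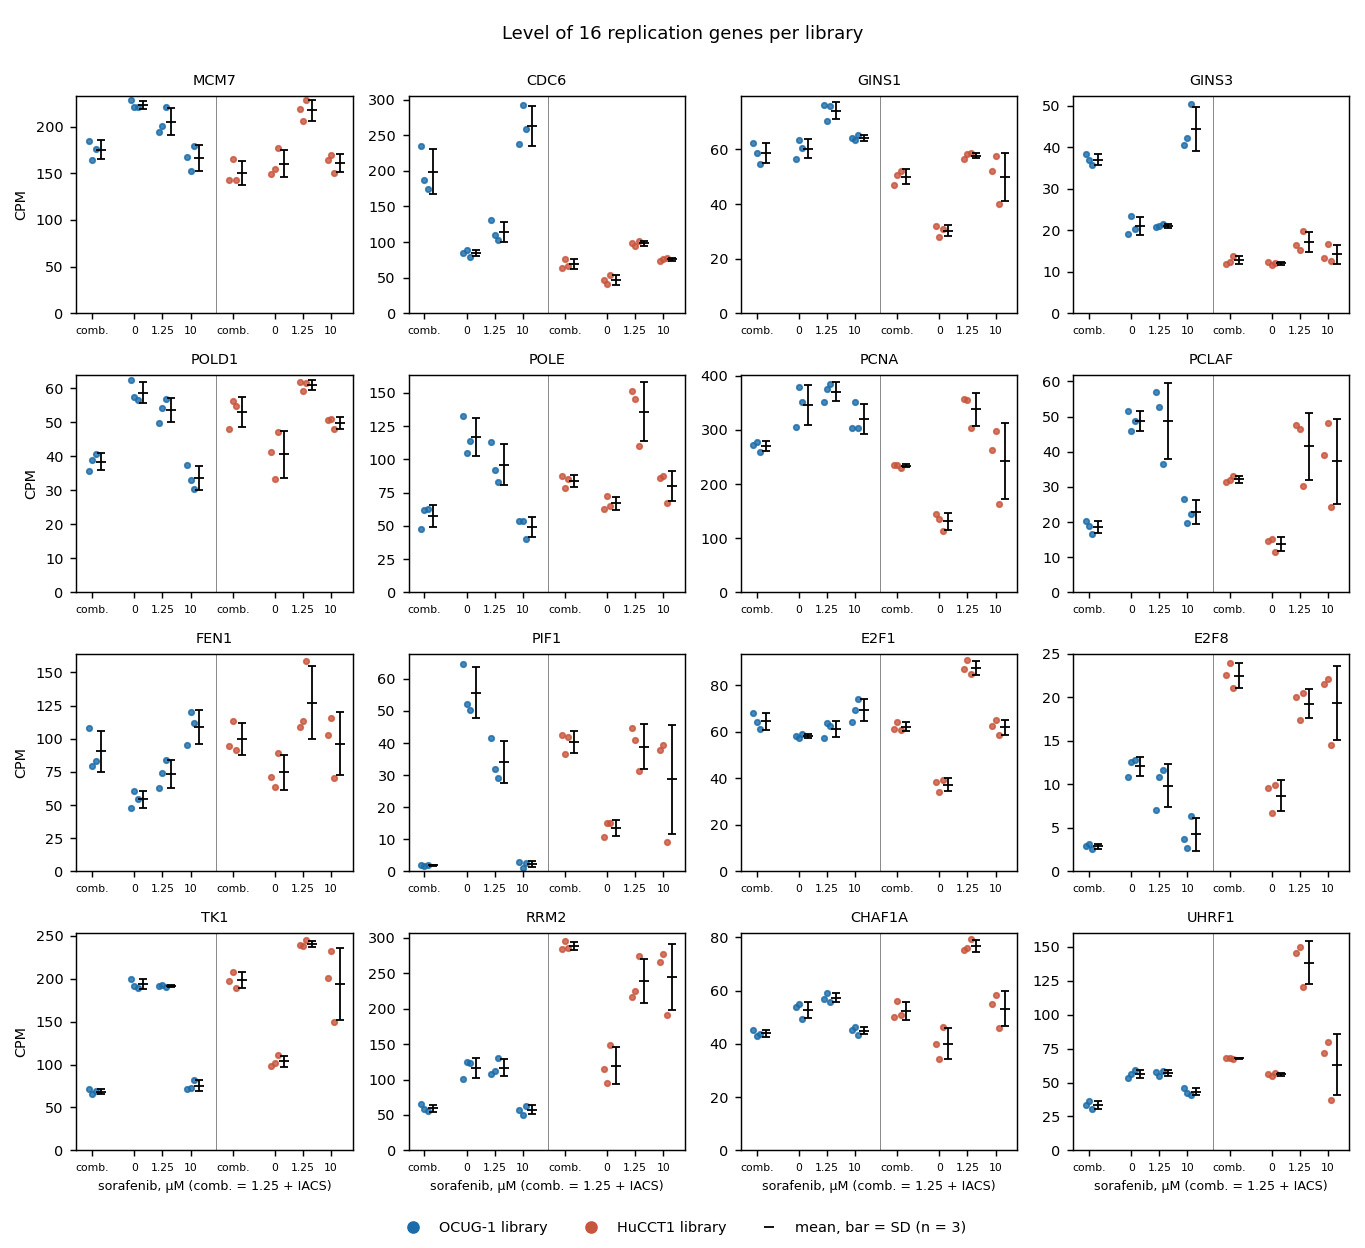
CPM of 16 genes in every library, the gene with the highest level per kilobase and the gene with the widest range of group means in each of the 8 steps, for the combination and the dose series of OCUG-1 (blue) and HuCCT1 (red), with mean and SD of 3 libraries. PIF1 in OCUG-1 sits between 1.14 and 2.89 CPM at 10 µM, below every vehicle library, while CDC6 in OCUG-1 at 10 µM lies above every vehicle library.

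E2F and cyclin E genes separated in OCUG-1 at 10 µM: E2F1, CCNE1 and CCNE2 rose, and E2F2 and E2F8 fell. E2F1 (ENSG00000101412, chr20:33675683-33686404, minus strand), an activator of S-phase genes, was at 58.01, 57.3 and 58.9 CPM in vehicle, 57.2, 63.9 and 62.4 CPM at 1.25 µM and 64.4, 69.4 and 73.97 CPM at 10 µM. The 10 µM libraries lay just above vehicle (log2 fold change 0.32, SE 0.09, adjusted p = 0.00489). E2F1 had 68.05, 64.4 and 61.03 CPM with the combination, against 57.2, 63.9 and 62.4 CPM at 1.25 µM alone (log2 fold change 0.19, SE 0.09, adjusted p = 0.0803). E2F2, another activator, had 5.55, 4.66 and 7.50 CPM at 10 µM, against 25.6, 20.98 and 25.5 CPM in vehicle. It fell far below its vehicle range (log2 fold change -1.96, SE 0.16, adjusted p = 5.81e-09). E2F8 (ENSG00000129173, chr11:19224063-19241620, minus strand), a repressor that is itself induced in S phase, was at 10.8, 12.6 and 12.8 CPM in vehicle, 7.03, 10.9 and 11.6 CPM at 1.25 µM and 3.73, 2.74 and 6.41 CPM at 10 µM. It fell at 10 µM (log2 fold change -1.44, SE 0.24, adjusted p = 4.88e-05). E2F8 had 2.90, 3.12 and 2.59 CPM with the combination, against 7.03, 10.9 and 11.6 CPM at 1.25 µM alone. All 3 were lower (log2 fold change -1.66, SE 0.26, adjusted p = 2.41e-05).

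The E-type cyclins, partners of CDK2 at the entry into S phase, rose together in OCUG-1. CCNE1 was at 23.1, 19.9 and 19.1 CPM in vehicle, 21.5, 21.5 and 23.2 CPM at 1.25 µM and 40.4, 32.7 and 46.2 CPM at 10 µM. It was higher at 10 µM in every library (log2 fold change 1.01, SE 0.13, adjusted p = 1.43e-06). CCNE1 had 32.2, 33.1 and 31.9 CPM with the combination, against 21.5, 21.5 and 23.2 CPM at 1.25 µM alone. It rose (log2 fold change 0.67, SE 0.13, adjusted p = 0.00018). CCNE2 was at 3.95, 6.72 and 5.13 CPM in vehicle, 3.51, 2.93 and 4.82 CPM at 1.25 µM and 13.96, 12.1 and 10.4 CPM at 10 µM. Low in vehicle, it rose at 10 µM (log2 fold change 1.28, SE 0.21, adjusted p = 3.77e-05). CCNE2 had 12.3, 8.75 and 9.06 CPM with the combination, against 3.51, 2.93 and 4.82 CPM at 1.25 µM alone. It rose there too (log2 fold change 1.55, SE 0.22, adjusted p = 1.04e-05).

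In HuCCT1 4 of the 5 rose at 1.25 µM and 3 at 10 µM. E2F1 was at 38.6, 33.98 and 39.2 CPM in vehicle, 86.96, 90.8 and 84.7 CPM at 1.25 µM and 62.4, 64.97 and 58.5 CPM at 10 µM. The 3 groups were separate, with 1.25 µM highest (log2 fold change 1.23, SE 0.09, adjusted p = 4.03e-06 at 1.25 µM and log2 fold change 0.73, SE 0.09, adjusted p = 4.02e-05 at 10 µM). E2F1 had 61.4, 64.3 and 60.9 CPM with the combination, against 86.96, 90.8 and 84.7 CPM at 1.25 µM alone. It fell by the addition (log2 fold change -0.49, SE 0.09, adjusted p = 0.00252). E2F8 was at 9.54, 6.66 and 9.94 CPM in vehicle, 20.02, 17.4 and 20.5 CPM at 1.25 µM and 21.5, 22.2 and 14.5 CPM at 10 µM. It was raised at both doses (log2 fold change 1.14, SE 0.17, adjusted p = 0.00048 at 1.25 µM and log2 fold change 1.15, SE 0.17, adjusted p = 0.000156 at 10 µM) and was not called when IACS-010759 was added (log2 fold change 0.22, SE 0.16, adjusted p = 0.406). E2F2 rose at 1.25 µM (1.44, adjusted p = 0.00018) and fell with the combination relative to 1.25 µM (-0.73, adjusted p = 0.0164). CCNE1 was at 6.36, 8.41 and 8.26 CPM in vehicle, 15.5, 13.5 and 12.97 CPM at 1.25 µM and 6.06, 9.02 and 8.63 CPM at 10 µM. It rose at 1.25 µM (log2 fold change 0.87, SE 0.17, adjusted p = 0.00307) and overlapped vehicle at 10 µM (log2 fold change 0.04, SE 0.18, adjusted p = 0.904). CCNE2 had 10.2, 7.73 and 5.23 CPM at 10 µM, against 4.01, 3.67 and 6.17 CPM in vehicle (log2 fold change 0.75, SE 0.25, adjusted p = 0.0382). These overlapped, and the call was lost for CCNE2 without vehicle replicate 1 or 2 or 10 µM replicate 1 or 2 (adjusted p = 0.0715 to 0.214). The lower call of the combination was lost for E2F2 without 1.25 µM replicate 1 or combination replicate 1 or 2 or 3 (adjusted p = 0.0625 to 0.0932).

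Between lines, E2F1, E2F2 and E2F8 responded lower in OCUG-1 at 10 µM by -0.48, -2.54 and -2.66 (adjusted p = 0.00295, 2.45e-09 and 4.84e-08). CCNE1 responded higher in OCUG-1 by 0.91 (adjusted p = 0.000908), and CCNE2 was not called at 10 µM (0.46, adjusted p = 0.293). For the combination over 1.25 µM, E2F1, CCNE1 and CCNE2 responded higher in OCUG-1 by 0.57, 1.03 and 1.68 (adjusted p = 0.000636, 0.000202 and 0.000305).

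Of the 5 genes that supply deoxynucleotides, 3 fell in OCUG-1 at 10 µM and 5 rose in HuCCT1. In OCUG-1 TK1 (ENSG00000167900, chr17:78174075-78187233, minus strand), the thymidine kinase of the salvage route, was at 200.04, 192 and 189 CPM in vehicle, 191, 193 and 190.4 CPM at 1.25 µM and 71.5, 72.1 and 82.4 CPM at 10 µM. Vehicle and 1.25 µM were alike in range and 10 µM was far below both (log2 fold change -1.29, SE 0.09, adjusted p = 1.25e-09). TK1 had 71.00, 65.2 and 68.9 CPM with the combination, against 191, 193 and 190.4 CPM at 1.25 µM alone. It fell there as well (log2 fold change -1.37, SE 0.09, adjusted p = 1.13e-09). RRM2 (ENSG00000171848, chr2:10120698-10131419, plus strand), the regulated small subunit of ribonucleotide reductase, was at 100.2, 125 and 124 CPM in vehicle, 108, 112 and 130.2 CPM at 1.25 µM and 57.2, 50.6 and 63.4 CPM at 10 µM. It fell at 10 µM in every library (log2 fold change -0.96, SE 0.12, adjusted p = 1.07e-06). RRM2 had 65.1, 58.4 and 55.5 CPM with the combination, against 108, 112 and 130.2 CPM at 1.25 µM alone. The addition lowered it (log2 fold change -0.85, SE 0.12, adjusted p = 5.79e-06). DUT, which clears dUTP, fell at 10 µM by 0.30 and with the combination over 1.25 µM by 0.57 (adjusted p = 0.0398 and 0.000618). At 10 µM the call was lost for DUT without vehicle replicate 2 or 3 or 10 µM replicate 1 or 2 (adjusted p = 0.0828 to 0.133). RRM1, the large reductase subunit, and TYMS, which makes dTMP, were not called at 10 µM (0.07 and -0.09, adjusted p = 0.799 and 0.809). Their SEs were 0.22 and 0.29. TYMS spread from 15.4 to 40.7 CPM within the 1.25 µM group.

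In HuCCT1 4 of 5 rose at 1.25 µM, all but RRM1, and all 5 rose at 10 µM and with the combination over vehicle. TK1 was at 98.9, 101 and 111 CPM in vehicle, 239, 238 and 245 CPM at 1.25 µM and 200.4, 233 and 149 CPM at 10 µM. Each dose cleared vehicle (log2 fold change 1.22, SE 0.13, adjusted p = 3.09e-05 at 1.25 µM and log2 fold change 0.90, SE 0.13, adjusted p = 0.000105 at 10 µM). RRM2 was at 115, 95.8 and 148 CPM in vehicle, 217, 225 and 275 CPM at 1.25 µM and 267, 277 and 192 CPM at 10 µM. It cleared vehicle as well (log2 fold change 1.03, SE 0.16, adjusted p = 0.000193 at 10 µM). RRM2 had 285, 295 and 286 CPM with the combination, against 217, 225 and 275 CPM at 1.25 µM alone. It was higher in all libraries with the combination, a difference that was not called (log2 fold change 0.27, SE 0.16, adjusted p = 0.274) and that was called without replicate 3 (0.39, adjusted p = 0.000163). The addition of IACS-010759 lowered 4 of the 5 in OCUG-1, where 26.7% of all tested genes fell. In HuCCT1 edgeR called 0 of 5, with 0 up and 1 down at an unadjusted p under 0.05 (DESeq2 adjusted p = 0.157 to 0.98). Of all tested genes 5.06% rose and 6.57% fell there, so 0 of 5 is near the share of all genes. The direct test of the difference between lines in this response called RRM2 (-1.25), TK1 (-1.21) and DUT (-0.67) lower in OCUG-1 (adjusted p = 1.23e-05, 4.12e-07 and 0.00184). At 10 µM all 5 responded lower in OCUG-1, by -2.06 for RRM2 and -2.27 for TK1 (adjusted p = 2.3e-09 and 3.01e-12).

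UHRF1 (ENSG00000276043, chr19:4903080-4962154, plus strand), which guides maintenance methylation to newly copied DNA, was at 53.1, 56.3 and 59.6 CPM in vehicle, 57.4, 54.5 and 58.6 CPM at 1.25 µM and 46.3, 42.6 and 41.02 CPM at 10 µM in OCUG-1. The 10 µM libraries were below vehicle (log2 fold change -0.31, SE 0.10, adjusted p = 0.0129). UHRF1 had 33.1, 36.4 and 30.6 CPM with the combination, against 57.4, 54.5 and 58.6 CPM at 1.25 µM alone. It fell there too (log2 fold change -0.65, SE 0.10, adjusted p = 2.74e-05). CHAF1A (ENSG00000167670, chr19:4402662-4445018, plus strand), the large subunit of chromatin assembly factor CAF-1, was at 53.8, 54.8 and 49.4 CPM in vehicle, 57.1, 59.1 and 55.7 CPM at 1.25 µM and 45.2, 46.2 and 43.5 CPM at 10 µM. It was lower in every library at 10 µM without being called (log2 fold change -0.16, SE 0.09, adjusted p = 0.136). CHAF1B, another CAF-1 subunit, fell at 10 µM (-0.50, adjusted p = 0.000322). In HuCCT1 UHRF1 was at 56.6, 54.6 and 57.1 CPM in vehicle, 145, 149.9 and 120.2 CPM at 1.25 µM and 71.8, 80.1 and 37.5 CPM at 10 µM. It rose at 1.25 µM (log2 fold change 1.31, SE 0.19, adjusted p = 0.000545), and at 10 µM the third library was below all of vehicle (log2 fold change 0.17, SE 0.19, adjusted p = 0.563). Without replicate 3 the 10 µM value was 0.44 (adjusted p = 6.02e-05). UHRF1 had 68.4, 67.9 and 67.5 CPM with the combination, against 145, 149.9 and 120.2 CPM at 1.25 µM alone. The addition lowered it (log2 fold change -1.03, SE 0.19, adjusted p = 0.00364). CHAF1A was at 39.98, 34.3 and 46.2 CPM in vehicle, 75.2, 75.9 and 79.5 CPM at 1.25 µM and 55.1, 58.5 and 45.9 CPM at 10 µM. It rose at 1.25 µM (0.94, adjusted p = 0.000117) and at 10 µM (0.40, adjusted p = 0.0187), with its lowest 10 µM library inside the vehicle range. Calls at 10 µM were lost in OCUG-1 for UHRF1 without vehicle replicate 3 or 10 µM replicate 3 (adjusted p = 0.0526 to 0.0578) and in HuCCT1 for CHAF1A without vehicle replicate 1 or 2 or 10 µM replicate 1 or 2 (adjusted p = 0.0609 to 0.0937).

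Of 35 further replication genes, 10 rose and 12 fell at 10 µM in OCUG-1, near the 32.4% and 30.7% of all tested genes (median log2 fold change -0.07, against 0.00068 over all genes). The smallest adjusted p-values upward belonged to RFC1, the large clamp loader subunit (0.95, adjusted p = 1.98e-07), POLE3 (1.05, adjusted p = 1.75e-06) and TOP1, a topoisomerase (0.89, adjusted p = 4.48e-06). Downward they belonged to TOP2A, the topoisomerase of dividing cells (-2.16, adjusted p = 7.4e-11), TIMELESS (-0.97, adjusted p = 7.29e-08) and CHTF18 (-1.50, adjusted p = 2e-07). With IACS-010759 added in OCUG-1, 8 rose and 17 fell (median -0.28), against 31.4% and 26.7% of all tested genes. In HuCCT1 23 rose and 1 fell at 1.25 µM (median 0.49, with 9.98% and 8.5% of all tested genes), led by the origin-firing factor TICRR (1.23, adjusted p = 9.24e-06), and 21 rose and 0 fell at 10 µM (median 0.59, with 13% and 11.2% of all tested genes), led by ATAD5, which unloads PCNA (1.60, adjusted p = 8.02e-07). The combination over 1.25 µM called 0 up and 2 down in HuCCT1, TIPIN and RNASEH2B, against 5.06% and 6.57% of all tested genes.

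Of 13 other deoxynucleotide genes, 6 rose and 5 fell at 10 µM in OCUG-1, where 32.4% and 30.7% of all tested genes did. SHMT1, an enzyme of folate metabolism, fell (-0.93, adjusted p = 2.04e-06), while DCTD, a deaminase of dCMP, rose (0.66, adjusted p = 9.65e-06). In HuCCT1 6 rose and 3 fell at 10 µM, with 13% and 11.2% of all tested genes: SHMT1 rose (0.71, adjusted p = 9.38e-05), and SAMHD1, which breaks down deoxynucleotides, fell (-1.13, adjusted p = 6.46e-05). Adding IACS-010759 lowered SAMHD1 in HuCCT1 by 2.00 on the log2 scale (adjusted p = 7.98e-07). The 17 genes of purine and pyrimidine synthesis were in HuCCT1 mostly not called. At 1.25 µM 3 rose and 0 fell (all tested genes 9.98% and 8.5%). At 10 µM 2 rose and 3 fell, near the 13% and 11.2% of all tested genes. Among those that fell was CAD, the start of the pyrimidine route (-0.63, adjusted p = 0.000619). With the combination over 1.25 µM 0 rose and 2 fell (all tested genes 5.06% and 6.57%). In OCUG-1 3 rose and 3 fell at 10 µM, a smaller part of the 17 than the 32.4% and 30.7% of all tested genes, with PPAT, the entry enzyme of purine synthesis, up (1.48, adjusted p = 2.26e-07) and PAICS, a later enzyme of that route, down (-0.86, adjusted p = 3.05e-07), and 7 rose and 5 fell with the combination over 1.25 µM, against 31.4% and 26.7% of all tested genes.

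Of 24 other E2F and RB network genes, 14 rose and 5 fell at 10 µM in OCUG-1 (median 0.35), against 32.4% and 30.7% of all tested genes (median 0.00068). CDC25A, a phosphatase that activates CDK2, rose by 2.42 (adjusted p = 3.42e-10), the repressor E2F7 by 1.82 (adjusted p = 7.75e-10) and CDK6 by 1.55 (adjusted p = 3.24e-08). The RB relative RBL2 fell by 1.22 and the E2F partner TFDP2 by 0.89 (adjusted p = 6.7e-07 and 1.04e-07). E2F7 and E2F8, repressors of the same kind, were thus called in opposite directions. In HuCCT1 7 rose and 3 fell at 1.25 µM and 8 rose and 4 fell at 10 µM, with 9.98% and 8.5% and 13% and 11.2% of all tested genes. MYBL2 (B-MYB) rose at both doses (1.11 and 1.18, adjusted p = 9.9e-05 and 2.04e-05) and the CDK inhibitor CDKN2B fell (-1.33 and -0.66, adjusted p = 4.03e-06 and 0.000169). Of 9 genes of chromatin and DNA methylation at replication, 1 rose and 6 fell in OCUG-1 at 10 µM (all tested genes 32.4% and 30.7%), with the histone chaperone NASP down (-1.32, adjusted p = 2.18e-08) and SLBP, which binds histone messenger RNA, up (1.43, adjusted p = 5.63e-09). In HuCCT1 7 rose and 0 fell of them at 1.25 µM (all tested genes 9.98% and 8.5%).

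Mitosis genes responded lower in OCUG-1 than in HuCCT1 at 10 µM for 20 of 21 by the direct test, against 23.1% of all tested genes. In OCUG-1 0 rose and 19 fell at 10 µM (median -1.48) and 0 rose and 21 fell with the combination over 1.25 µM (median -1.64), where 32.4% and 30.7% and 31.4% and 26.7% of all tested genes did. KIF20A, CENPF and CENPE, of the spindle and kinetochore, fell at 10 µM, with log2 fold changes of -3.77, -2.33 and -2.44 (adjusted p = 3e-12, 3.69e-12 and 7.46e-12). The summed level of the 21 was 846, 719.9 and 923 CPM at 10 µM, against 2780.1, 2756 and 2637 CPM in vehicle. In HuCCT1 18 rose and 0 fell at 1.25 µM (median 0.92), 19 rose and 0 fell at 10 µM (median 1.01) and 18 rose and 0 fell with the combination (median 1.01), all over vehicle, where 9.98% and 8.5%, 13% and 11.2% and 9.94% and 10.1% of all tested genes did. Over 1.25 µM the combination called 0 of the 21 in HuCCT1 by edgeR, with 3 up and 0 down at an unadjusted p under 0.05. The summed mitosis level was 3417, 3653 and 3385 CPM, against 3276, 3303 and 3527 CPM at 1.25 µM. What part a change in the share of cycling cells had in the replication values was not tested.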

How the data were processed

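Total RNA of 24 libraries (2 cell lines, 4 groups each, 3 libraries per group) was sequenced as poly-A libraries. The authors deposited raw counts per Ensembl gene without normalization, in 1 table per line; the submitters' processing notes name fastp 1.3.2, HISAT2 2.2.2, Subread 2.1.1 with featureCounts and the GRCh38 build. Not given in the sources used here: annotation release, strand setting, treatment of reads with several hits. The labels say that extra runs were pooled for 4 OCUG-1 libraries and do not name them.

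The test was the quasi-likelihood test of edgeR 4.0.16, run in R 4.3.3 (TMM scaling, filterByExpr with a minimum count of 10, robust), applied to each line on its own (12 libraries) and, for line differences, to all 24 libraries together. The fits tested 20511 genes in OCUG-1, 19576 in HuCCT1 and 22944 in both, with biological coefficients of variation of 0.131, 0.137 and 0.135. Calls are Benjamini-Hochberg adjusted p-values under 0.05, and each SE is the fold change divided by the square root of F. Depth ran from 14388855 to 30693736 counts per library. P-values rest on the spread between the 3 libraries within groups, estimated for each gene over all groups of a fit. Libraries that stand apart in 1 group therefore also widen the SEs of comparisons between other groups of the fit. The labels call the 3 libraries of a group independent biological replicates. All 46 genes are described; values per library are given for the gene with the highest level per kilobase and the gene with the widest range of group means in each step, and for genes called against the direction of most called members of their comparison. From the other lists up to 3 called genes per direction with the smallest adjusted p were eligible. Windows of sequence come from RefSeq (GRCh38.p14), and coordinates, exons and lengths from GENCODE release 29. The members and lists were chosen with earlier results of these data known. Alternatives were scaling by library totals, DESeq2 1.42.0, no filter on low counts, a replicate block, no mitochondrial genes, only the 2 groups compared, and leaving out libraries.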

Additional observations from a re-analysis of the deposited data

Results flagged for a closer look

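By edgeR's quasi-likelihood test the OCUG-1 change minus the HuCCT1 change differed from 0 for 34 of the 46 genes at 1.25 µM over vehicle. The number was 38 at 10 µM over vehicle and 20 with the combination over 1.25 µM. Of all tested genes 4.96% responded higher and 4.69% lower in OCUG-1 at 1.25 µM, and 20.7% and 23.1% at 10 µM. For the combination over 1.25 µM they were 18.6% and 20.2%. The shares of the 46 genes there, 17.4% higher and 26.1% lower, were near those of all genes. At 1.25 µM the differences furthest from 0 were those of PIF1 (-2.23 on the log2 scale), E2F2 (-1.82) and PCLAF (-1.59), all lower in OCUG-1. At 10 µM they were, downward in OCUG-1, PIF1 (-5.73), LIG1 (-2.73) and E2F8 (-2.66), and upward CDC6 (0.96), CCNE1 (0.91) and GINS3 (0.84). With the combination over 1.25 µM they were, downward, PIF1 (-4.21), E2F8 (-2.002) and E2F2 (-1.29), and upward CCNE2 (1.68), CDC6 (1.298) and GINS3 (1.24). The 1.25 µM libraries enter both the 1.25 µM and the combination comparison, so these differences are not independent of each other. Line and medium cannot be told apart.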

How the results depend on the processing

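Counts of called genes among the 46, both directions together, stayed within 1.5 times their value except as follows, and the cause was not tested. The combination over 1.25 µM in HuCCT1 called 17 genes, against 7 with scaling by library totals alone, 27 without replicate 3 of the vehicle, 1.25 µM and 10 µM groups, and 7 to 15 with 1 library left out. For 10 µM over 1.25 µM in HuCCT1 the count was 18, against 10 with library totals alone and 28 without those replicates, with a range of 13 to 28. In OCUG-1 at 1.25 µM 2 genes were called, against 5 with DESeq2, 4 without a filter on low counts, 1 with the replicate block and 0 to 4 with 1 library left out. By direction, the genes higher in OCUG-1 with the combination numbered as few as 4 over 1.25 µM, against 7 with all libraries, and as few as 6 over vehicle, against 11, when single libraries were left out. MCM2 in HuCCT1 reversed without replicate 3 of those groups, to 0.56 for the combination and 0.61 for 10 µM, both over 1.25 µM. Scaling by library totals gave a median log2 fold change over all genes of 0.21 in OCUG-1 and 0.19 in HuCCT1 for the combination over 1.25 µM, against 0.063 and 0.0016 with TMM, and of -0.13 in OCUG-1 and -0.14 in HuCCT1 for 1.25 µM over vehicle, against -0.033 and 0.0032 with TMM.

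The labels do not tie same-numbered libraries of different groups together. After subtraction of group means, the best correlate of a library carried its own number in 3 of 12 cases in OCUG-1 and in 6 of 12 in HuCCT1, and the numbers were not taken as pairs. With the replicate block the counts at 10 µM were 33 in OCUG-1 and 33 in HuCCT1, and those of the combination over 1.25 µM were 31 and 18. Of single-gene values, DESeq2 kept 582 on the same side of the threshold, raised 11 past it and lost 5. Scaling by library totals alone kept 536, raised 14 and lost 48. Dropping the filter on low counts kept 557, raised 11 and lost 30. Over all fits with libraries left out, 4362 values were kept, 103 were raised past the threshold, 317 were lost and 2 reversed. With 3 libraries a group, a change that was not called is not shown to be absent.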
